A study of Mus musculus with 12 samples.

Results

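The genes described here are 37 listed members of the amino acid response: the transcription factor ATF4 and its stress partners, enzymes that make serine, asparagine and proline, amino acid transporters, and the cytosolic enzymes that charge tRNAs. They were taken by gene symbol from arrays of 12 tumors, with the probeset of highest mean for each gene. Of the 37, 35 were named on the array and all 35 passed the filter on low values, among 16573 genes tested in all. Pycr1 was named on no probeset, and Aars only on a probeset that it shares with Exosc6, so neither was assigned a value.

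The tumors came from J2A cells, 1 line of aortic myofibroblasts from C57BL/6 mice deficient for p16, p19 and Vnn1. Every group carried human activated H-RasV12 fused to GFP, behind an IRES of a retroviral vector, with Vnn1 where present under its cytomegalovirus promoter. R cells carried Ras alone, VR cells also intact mouse Vnn1 (a pantetheinase, which cuts pantetheine into pantothenate and cysteamine), and VdR cells the catalytically deficient form Vnn1dCr. Cells were grafted under the skin of the back of female nude mice on a normal diet, and tumors were taken after some weeks of growth. The age of the hosts is not given in the sources used here. There were 4 tumors per group, numbered 1, 2, 4 and 5. The study tells of no new transduction for each tumor, so within a group the grafting was repeated but not, as far as stated, the introduction of the vector, and p-values measure that spread. Nude mice lack mature T cells but keep macrophages and natural killer cells, and the study describes RNA from the whole tumor mass whereas the labels speak of sorted cells.

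When amino acids run short or unfolded proteins collect, kinases phosphorylate the initiation factor eIF2, general translation falls and translation of the Atf4 mRNA rises. ATF4 then pairs with C/EBP proteins on composite promoter elements and raises genes for amino acid synthesis, uptake and tRNA charging, while CHOP, TRIB3 and GADD34 shape or end the response. The growth kinase mTORC1 also raises ATF4, which ties the program to growth in tumors. Because ATF4 is set largely at translation, its mRNA level is not its protein level.

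The composite element was looked for in promoter windows from RefSeq (mouse build GRCm38.p6), each running from 250 bases before to 50 bases after an annotated start. Windows were found for 30 of the 37 members. The core TGATGNAA, searched on both strands, stood in 11 of the 30 (36.7%), against 4.51% of all 27025 genes with a window. They were Nupr1, Trib3, Chac1, Asns, Pycr1, Slc1a4, Aars, Gars, Iars, Tars and Yars. The members were listed in part as known ATF4 targets, so a share above that of all genes is built into the list. By role, 5 of 8 synthetases with a window held it, 1 of 4 transporters and 0 of 5 serine and one-carbon genes. The cyclic AMP response element TGACGTCA stood in Ppp1r15a alone among the members (3.33%) and in 2.03% of all genes. No member window held both. The stretches around the element are shown for the 4 members that held it and were called in a tumor comparison on at least 1 probeset, for Asns, the textbook target, and for Ppp1r15a. Each is read 5′ to 3′ on the strand of the gene, with the element in capitals. Where the core lies on the opposite strand, the capitals are its reverse complement.
Trib3, chr2:152344031-152344072, minus strand: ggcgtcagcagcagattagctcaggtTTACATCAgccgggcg
Gars, chr6:55037945-55038004, plus strand: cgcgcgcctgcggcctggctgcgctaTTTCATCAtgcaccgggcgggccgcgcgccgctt
Iars, chr13:49682111-49682159, plus strand: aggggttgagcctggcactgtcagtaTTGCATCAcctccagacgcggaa
Tars, chr15:11399640-11399699, minus strand: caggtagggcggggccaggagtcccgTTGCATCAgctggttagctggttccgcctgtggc
Asns, chr6:7693199-7693258, minus strand: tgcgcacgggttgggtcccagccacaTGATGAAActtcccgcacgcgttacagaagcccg
Ppp1r15a, chr7:45526247-45526306, minus strand: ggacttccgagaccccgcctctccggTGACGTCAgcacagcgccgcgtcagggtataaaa
The capitals of Asns began 23 bases before its start, those of Tars 15 bases, those of Gars 30 bases and those of Ppp1r15a 12 bases before. In Iars and Trib3 they lay just past the start. These are matches of letters in a window and not measured binding sites.

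**Figure D1:**
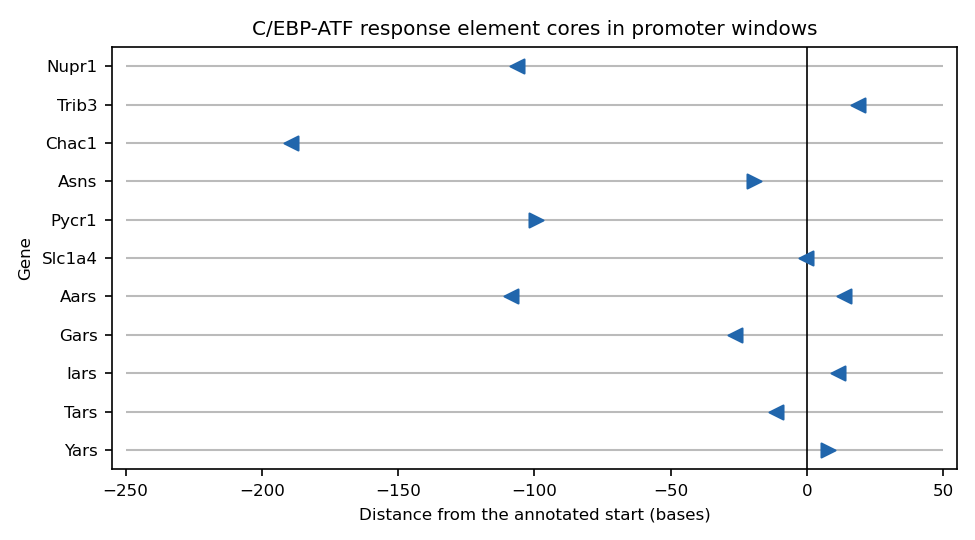
Position of the TGATGNAA core in the promoter windows of the 11 members that held it. The x axis gives the distance from the annotated start in bases, each grey line is 1 window, and a triangle points right where the core lies on the strand of the gene and left where it lies on the other. Aars is the only gene with 2 cores, and Chac1 has the core farthest upstream.

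All levels are log2 values normalised across arrays by the authors, and differences are log2 differences of group means. They were tested with limma, with p-values adjusted over all 16573 genes, and a gene was called where the adjusted p was under 0.05. Vnn1 followed the labels, with a mean log2 value of 5.70 ± 0.13 (SD, n = 4) in R tumors against 10.87 ± 0.34 with the intact and 11.56 ± 0.16 with the deficient form. All 10 myofibroblast markers were above the filter, with mean scores of 10.8 to 11.5 over the tumors. A skeletal muscle score, the mean log2 value of 8 markers, was 8.55 to 9.53 in 5 tumors (R2, R5, VdR2, VdR4 and VR2) and no more than 6.74 in the other 7. The macrophage score, over 14 markers, lay between 8.97 and 9.27 in R tumors, between 9.91 and 10.1 in VR tumors and between 10.0 and 10.2 in VdR tumors. Of the 14 markers, 11 were called higher in VR than R (78.6%, beside 13.6% of all genes). In VdR against R 13 were higher (92.9%, beside 6.58%), and between VR and VdR 0 were called (beside 3.44%).

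Between tumors of a group the log2 values of the members had a median SD of 0.12, against 0.11 over all genes tested. It ran from 0.047 for Xpot, the exporter of tRNAs from the nucleus, to 0.28 for Ddit3, which encodes CHOP. Within the R group many members moved together. R1 and R4 were the 2 highest R tumors in 17 of 35 members (48.6%), against 27.7% of all genes. These 17 included 5 of the 7 stress regulators (Atf4, Ddit3, Cebpb, Trib3, Ppp1r15a), Asns, Mthfd2 and 6 synthetases. R1 and R4 were also the R tumors with low muscle scores, 6.67 and 6.65 against 9.35 in R2 and 8.68 in R5. In the VR group, VR2 and VR4 were the highest in 14 of 35 members (40%), against 14.8% of all genes, and only VR2 of these had a high muscle score. In VdR tumors no pair led in more than 10 members. VdR1 and VdR2 did so in 10 of 35 (28.6%), against 19.8% of all genes.

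**Figure D2:**
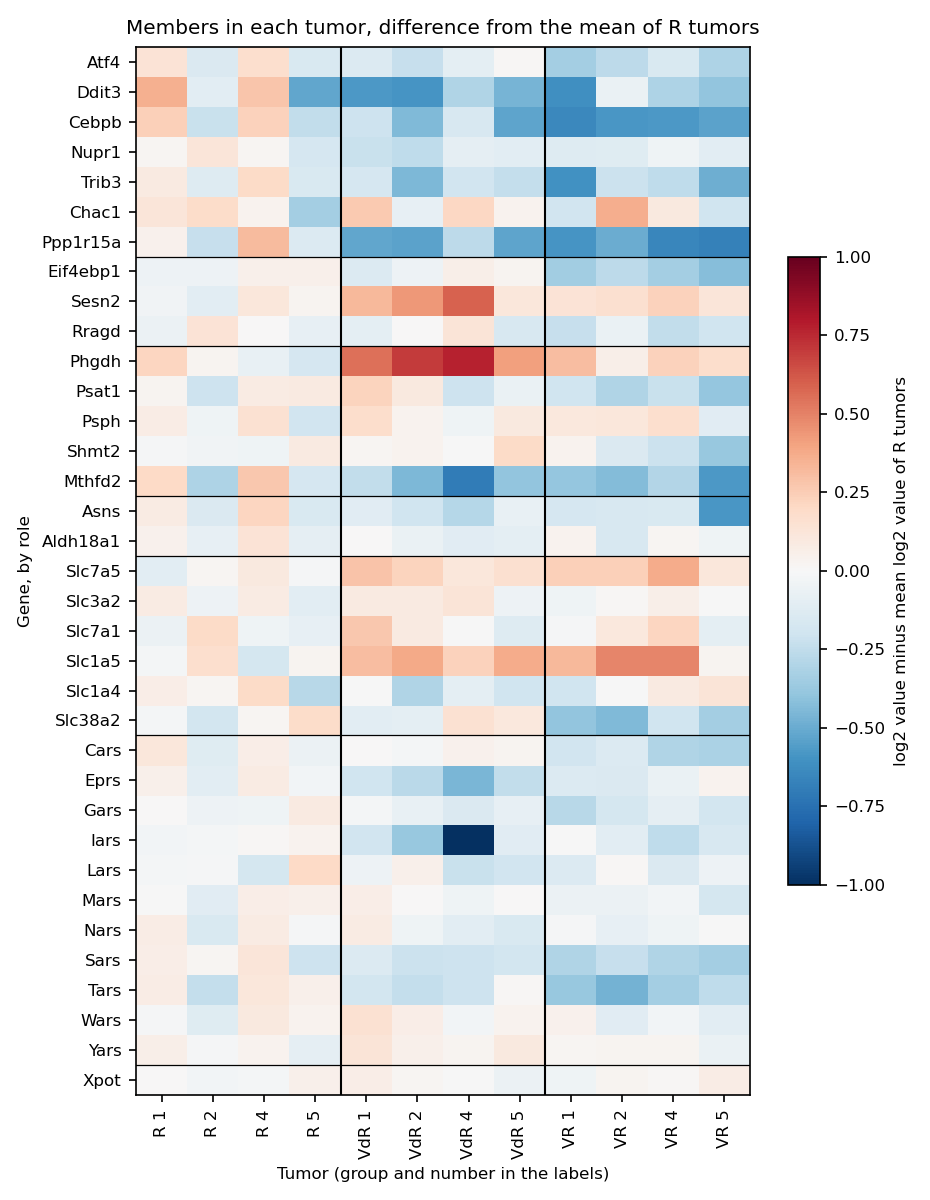
Log2 value of each of the 35 members in each tumor minus the mean of the R tumors, by role (horizontal lines) and group (vertical lines), with red above and blue below. Cebpb and Ppp1r15a are dark blue in all VR tumors and Ddit3 and Cebpb are red in R1 and R4, and Phgdh is reddest in VdR tumors. The deepest cell, Iars in VdR4, lies slightly past the end of the colour scale.

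The members called in VR tumors were mostly lower than in R tumors, and most members were not called in any one comparison. Against R, 13 of 35 were called in VR tumors (background 21.1% of all genes). Of these, 2 members were higher (5.71%; background 13.6% of all genes) and 11 were lower (31.4%; background 7.48%). The median log2 difference of the members was -0.10, beside -0.015 for all genes. VR and R tumors did not overlap in 13 members, 2 higher and 11 lower, where 25.8% of all genes did not overlap. Of the 16573 genes, 2537 were without overlap and higher in VR, and 1740 were without overlap and lower. Between VdR and R, 4 were called (background 9.38%), of which 2 were higher (background 6.58%) and 2 lower (background 2.81%), with a median of -0.031 beside 0.0038. Between VR and VdR, 4 were called (background 3.44%), of which 0 were higher (background 1.77%) and 4 lower (11.4%; background 1.67%), with a median of -0.090 beside -0.018. VdR and R tumors did not overlap in 8 members (background 14.2%), and VR and VdR tumors in 8 (background 12.6%). At an unadjusted p under 0.05 limma counted 17, 13 and 9 members in the 3 comparisons. The comparisons share tumors, so their calls are not independent of each other. No member passed a test against a minimum change of 1.5-fold in any comparison. In bulk RNA, fewer cells of a type and less RNA per cell cannot be told apart. The macrophage score moved with VR and VdR against R. In VR against R, 6 of 10 myofibroblast (60%) and 2 of 8 endothelial markers (25%) were also higher, beside 13.6% of all genes. The part of these cell types in the differences of the members was not tested. Leaving out R1 took the lower calls in VR against R from 11 to 6 and the higher calls from 2 to 0. Without R4 there were 7 lower and 1 higher, and without VR5, 6 lower and 2 higher. The higher calls also went to 1 without R5, VR1 or VR2 and to 0 without VR4.

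**Figure D3:**
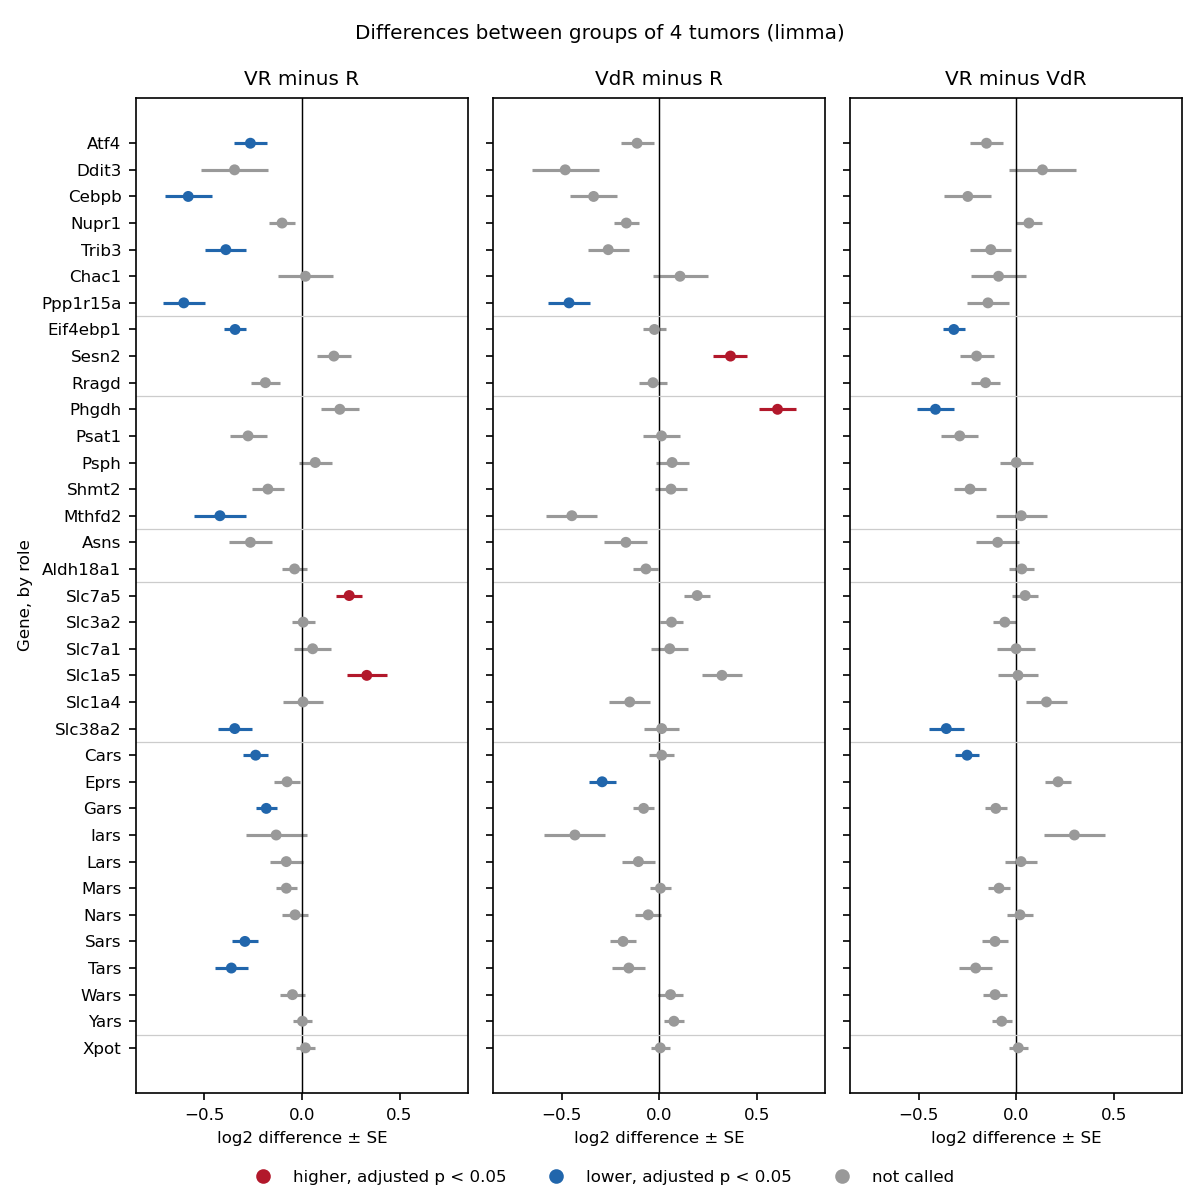
Log2 difference of each of the 35 members in the 3 comparisons, as point ± SE from limma, grouped by role. Filled blue points were called lower and red points higher at an adjusted p under 0.05, and grey points were not called. VR minus R holds 11 blue and 2 red points, VdR minus R holds 2 of each, and VR minus VdR holds 4 blue points.

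The stress regulators held the 2 largest differences between VR and R tumors among the members. Of 7, 4 fell in VR against R (Ppp1r15a, Cebpb, Trib3 and Atf4), 1 fell in VdR against R (Ppp1r15a) and 0 were called between VR and VdR. Over all genes, 7.48%, 2.81% and 1.67% were called lower in these comparisons. The median log2 differences of the 7 regulators were -0.35, -0.26 and -0.13. Ppp1r15a encodes GADD34, which directs a phosphatase to eIF2 and so restarts translation. Its log2 values, here and below in the order of tumors 1, 2, 4 and 5, were 7.87, 7.60, 8.14 and 7.69 in R tumors, 7.30, 7.29, 7.56 and 7.30 in VdR tumors and 7.23, 7.33, 7.17 and 7.15 in VR tumors. Every VR and VdR tumor lay below every R tumor, and VdR4 stood above the other VdR tumors. The log2 difference was -0.61 (SE 0.11, adjusted p = 0.00218) for VR against R, a ratio of 0.657, and -0.46 (SE 0.11, adjusted p = 0.0173) for VdR against R. Between VR and VdR it was -0.14 (SE 0.11, adjusted p = 0.51). The VdR call was lost without R1, VdR1 or VdR2 (adjusted p 0.0502 to 0.056), and the VR call was kept without any one tumor.

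Cebpb encodes C/EBP beta, a partner of ATF4 on DNA that is also prominent in macrophages. Its log2 values were 9.14, 8.68, 9.13 and 8.66 in R tumors, 8.69, 8.46, 8.74 and 8.37 in VdR tumors and 8.26, 8.32, 8.33 and 8.36 in VR tumors. The VR tumors lay close together and below every other tumor, and R1 and R4 stood above the rest. The log2 difference between VR and R was -0.58 (SE 0.12, adjusted p = 0.00525), a ratio of 0.667, and this call was kept without any one tumor. It was -0.34 (SE 0.12, adjusted p = 0.108) for VdR against R and -0.25 (SE 0.12, adjusted p = 0.29) for VR against VdR, neither called. Trib3 encodes a pseudokinase that restrains ATF4. On the log2 scale it stood at 7.64, 7.42, 7.75 and 7.40 in R tumors, 7.39, 7.11, 7.36 and 7.31 in VdR tumors and 6.95, 7.34, 7.29 and 7.07 in VR tumors. VR and VdR tumors all lay below the R tumors and overlapped with each other. The group means differed on the log2 scale by -0.39 (SE 0.11, adjusted p = 0.0206) for VR against R and -0.26 (SE 0.11, adjusted p = 0.157) for VdR against R. Leaving out R1, R4, VR1 or VR5 ended the VR call (adjusted p 0.0542 to 0.0654).

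Atf4 itself had log2 values of 9.25, 8.96, 9.28 and 8.96 in R tumors, 8.98, 8.88, 9.01 and 9.12 in VdR tumors and 8.78, 8.85, 8.96 and 8.80 in VR tumors. VR and R tumors did not overlap but nearly touched, with VR4 and R5 both at 8.96, and VdR tumors lay across both. limma gave a log2 difference of -0.26 (SE 0.085, adjusted p = 0.0434) for VR against R, a ratio of 0.832, -0.11 (SE 0.085, adjusted p = 0.474) for VdR against R and -0.15 (SE 0.085, adjusted p = 0.364) for VR against VdR. The VR call rested on many tumors: it was lost without any one of R1, R4, VdR1, VdR4, VR1, VR2 or VR5 (adjusted p 0.0524 to 0.128). Ddit3 encodes CHOP, which turns a long stress response toward cell death. The tumors gave log2 values of 9.41, 8.95, 9.33 and 8.54 in R tumors, 8.48, 8.47, 8.76 and 8.60 in VdR tumors and 8.45, 8.99, 8.75 and 8.66 in VR tumors. R tumors ran from the highest value of all, R1, to a value inside the VdR range, R5, and the groups overlapped. No comparison was called, with log2 differences of -0.35 (SE 0.17, adjusted p = 0.174) for VR against R and -0.48 (SE 0.17, adjusted p = 0.108) for VdR against R. Nupr1, a small stress-induced nuclear protein, and Chac1, which breaks down glutathione, were not called in any comparison, with log2 differences from -0.17 to 0.11.

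**Figure D4:**
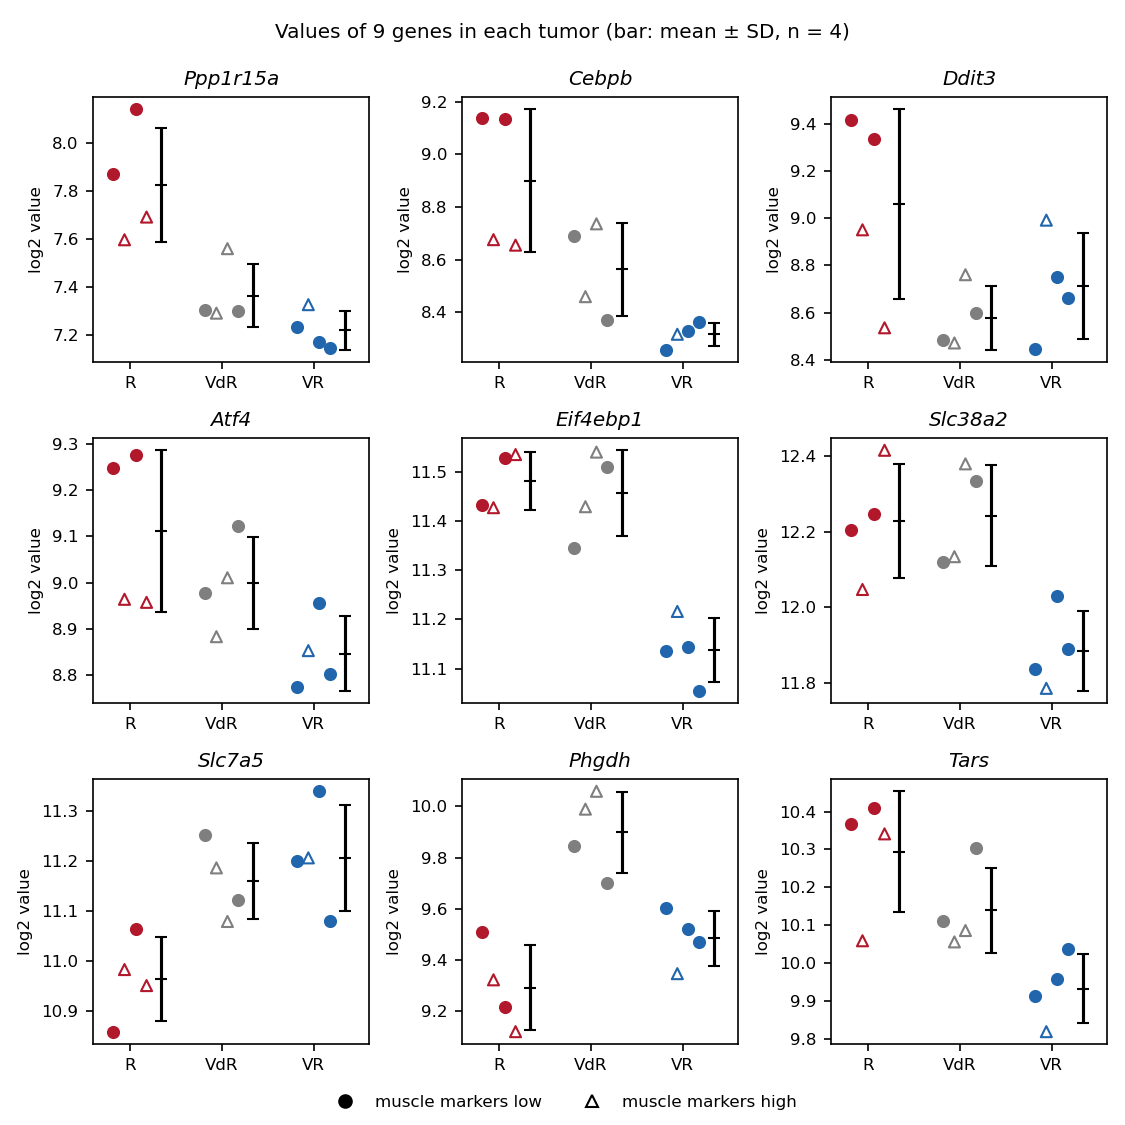
Log2 values of 9 members in each tumor of the R, VdR and VR groups, with the mean ± SD (n = 4) as a bar beside each group. Filled circles are tumors with low skeletal muscle markers and open triangles the 5 tumors with high ones. R1 and R4, the filled R points, stand above the triangles for Ppp1r15a, Cebpb, Ddit3 and Atf4, whereas Phgdh is highest in VdR and Eif4ebp1 and Slc38a2 are lowest in VR.

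Muscle was treated in 2 ways, both chosen after the data were seen. With the muscle score as a covariate over all 12 tumors, all 13 calls in VR against R were kept and Psat1 joined the lower members at -0.31 (adjusted p = 0.0261), so that 12 were lower (background 11.8%) and 2 higher (background 15.1%). Atf4 then stood at a log2 difference of -0.31 (adjusted p = 0.0116), Cebpb at -0.62 (adjusted p = 0.0043) and Ppp1r15a at -0.62 (adjusted p = 0.00311). In VdR against R all 4 calls were kept and Mthfd2 joined them at -0.43 (adjusted p = 0.0106), with 3 lower (background 2.91%) and 2 higher (background 6.9%). Ddit3 was not called, at -0.37 (adjusted p = 0.146) in VR and -0.48 (adjusted p = 0.123) in VdR, nor was Cebpb in VdR, at -0.33 (adjusted p = 0.106). In VR against VdR 1 member was lower (background 1.67%), Eif4ebp1 at -0.30 (adjusted p = 0.0275), and 0 were higher (background 1.76%). Phgdh, at -0.40 (adjusted p = 0.0578), Slc38a2, at -0.37 (adjusted p = 0.0597), and Cars, at -0.26 (adjusted p = 0.0523), were no longer called. Leaving out the 5 muscle-bearing tumors instead left 3 VR and 2 VdR tumors and, as the R arm, R1 and R4 alone. These are the R tumors already given as the highest in 17 members, Ddit3, Cebpb and Ppp1r15a among them, so lower values against R in these members restate that observation and add no support. Against R, 10 members were then lower in VR (background 5.9%) and 0 higher (background 11%), and 4 were lower in VdR (background 2.29%) and 0 higher (background 4.47%). Calls that ended without these tumors were those of Slc38a2, at -0.31 (adjusted p = 0.0538), Gars, at -0.17 (adjusted p = 0.154), Slc7a5, at 0.24 (adjusted p = 0.133), and Slc1a5, at 0.38 (adjusted p = 0.0844), in VR against R, and of Phgdh, at 0.41 (adjusted p = 0.0704), Sesn2, at 0.18 (adjusted p = 0.31), and Eprs, at -0.29 (adjusted p = 0.0716), in VdR against R. Between VR and VdR, 0 members were called, beside 0.0302% of all genes higher and 0.0121% lower.

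Among the 3 members that act on translation and mTORC1, Eif4ebp1 was lower in VR than in both other groups and Sesn2 was higher in VdR than R. Eif4ebp1 encodes 4E-BP1, which holds the cap-binding factor eIF4E away from ribosomes. Log2 values were 11.43, 11.43, 11.53 and 11.54 in R tumors, 11.35, 11.43, 11.54 and 11.51 in VdR tumors and 11.13, 11.22, 11.14 and 11.05 in VR tumors. All 4 VR tumors lay below all 8 others, which overlapped. In VR it fell, with log2 differences of -0.34 (SE 0.058, adjusted p = 0.00176) against R and -0.32 (SE 0.058, adjusted p = 0.018) against VdR, and VdR against R gave -0.024 (SE 0.058, adjusted p = 0.856). The call against R was kept without any one tumor, and the call against VdR was lost without VdR4 or VR4 (adjusted p 0.0511 to 0.0587). Sesn2 encodes a leucine sensor that restrains mTORC1. Its log2 values were 8.35, 8.28, 8.49 and 8.41 in R tumors, 8.71, 8.82, 8.97 and 8.50 in VdR tumors and 8.52, 8.54, 8.62 and 8.50 in VR tumors. R tumors lay below every VdR and VR tumor, and VdR4 was the highest of all. The log2 difference was 0.37 (SE 0.087, adjusted p = 0.0203) for VdR against R, 0.16 (SE 0.087, adjusted p = 0.203) for VR against R and -0.20 (SE 0.087, adjusted p = 0.228) for VR against VdR. The VdR call was lost without R1, R2 or VdR2 (adjusted p 0.051 to 0.0644). Rragd, a Rag GTPase that signals amino acids to mTORC1, was not called in any comparison.

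The serine and one-carbon genes did not move as 1 group. Of 5, 1 was lower in VR against R (Mthfd2), 1 higher in VdR against R and 1 lower in VR against VdR (both Phgdh). The matching shares of all genes were 7.48% lower, 6.58% higher and 1.67% lower. Phgdh encodes the enzyme of the first step of serine synthesis. On the log2 scale it stood at 9.51, 9.32, 9.22 and 9.12 in R tumors, 9.84, 9.99, 10.06 and 9.70 in VdR tumors and 9.60, 9.35, 9.52 and 9.47 in VR tumors. VdR tumors stood above every R and VR tumor, while R and VR tumors overlapped. The group means differed on the log2 scale by 0.61 (SE 0.097, adjusted p = 0.00213) for VdR against R, a ratio of 1.52, and this call was kept without any one tumor. It was -0.41 (SE 0.097, adjusted p = 0.04) for VR against VdR and 0.19 (SE 0.097, adjusted p = 0.175) for VR against R. The call of VR against VdR was lost without any one of R4, VdR1, VdR2, VdR4, VR2, VR4 or VR5 (adjusted p 0.05 to 0.105). Mthfd2 encodes a mitochondrial enzyme of folate-bound one-carbon units. The tumors gave log2 values of 10.36, 9.85, 10.43 and 10.00 in R tumors, 9.92, 9.71, 9.46 and 9.77 in VdR tumors and 9.78, 9.73, 9.87 and 9.59 in VR tumors. R1 and R4 stood above all other tumors, and R2 lay inside the VR range. limma gave a log2 difference of -0.42 (SE 0.13, adjusted p = 0.039) for VR against R and, without passing, -0.45 (SE 0.13, adjusted p = 0.0521) for VdR against R. The VR call was lost without any one of R1, R4, VdR2, VR1, VR2, VR4 or VR5 (adjusted p 0.0505 to 0.117). Psat1 and Psph, which carry out the later steps of serine synthesis, and Shmt2, which makes glycine from serine in mitochondria, were not called. Psat1 came nearest, at -0.28 (SE 0.095, adjusted p = 0.0563) for VR against R. Asns, which makes asparagine, and Aldh18a1, which opens proline synthesis, were not called either. Asns in VR tumors lay below every R tumor, with a log2 difference of -0.26 (SE 0.11, adjusted p = 0.108).

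Transporters moved in both directions. Of 6, 2 rose (Slc7a5 and Slc1a5) and 1 fell (Slc38a2) in VR against R, 0 were called in VdR against R, and 1 fell in VR against VdR (Slc38a2). Of all genes, 13.6% rose and 7.48% fell in VR against R, and 1.67% fell in VR against VdR. Slc7a5 encodes LAT1, the exchanger of large neutral amino acids such as leucine. Log2 values were 10.86, 10.98, 11.06 and 10.95 in R tumors, 11.25, 11.19, 11.08 and 11.12 in VdR tumors and 11.20, 11.21, 11.34 and 11.08 in VR tumors. All VR and VdR tumors lay above all R tumors. The log2 difference was 0.24 (SE 0.066, adjusted p = 0.0221) for VR against R and 0.20 (SE 0.066, adjusted p = 0.0914) for VdR against R. Leaving out R1 or VR4 ended the VR call (adjusted p 0.0686 to 0.0701). Slc1a5 encodes ASCT2, a glutamine transporter. Its log2 values were 9.18, 9.38, 9.03 and 9.24 in R tumors, 9.51, 9.58, 9.44 and 9.58 in VdR tumors and 9.53, 9.70, 9.69 and 9.23 in VR tumors. VdR tumors lay above all R tumors, whereas VR5 lay inside the R range. The group means differed on the log2 scale by 0.33 (SE 0.10, adjusted p = 0.0366) for VR against R and 0.32 (SE 0.10, adjusted p = 0.0698) for VdR against R, and by 0.0096 (SE 0.10, adjusted p = 0.97) for VR against VdR. The VR call was lost without any one of R1, R4, R5, VR1, VR2 or VR4 (adjusted p 0.0536 to 0.11).

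Slc38a2 encodes SNAT2, a sodium-driven carrier of small neutral amino acids that is known to rise when amino acids run short. On the log2 scale it stood at 12.21, 12.05, 12.25 and 12.42 in R tumors, 12.12, 12.13, 12.38 and 12.33 in VdR tumors and 11.84, 11.79, 12.03 and 11.89 in VR tumors. All VR tumors lay below all R and VdR tumors. limma gave a log2 difference of -0.34 (SE 0.088, adjusted p = 0.0157) for VR against R and -0.36 (SE 0.088, adjusted p = 0.0478) for VR against VdR, and 0.013 (SE 0.088, adjusted p = 0.954) for VdR against R. The call against R was kept without any one tumor. The call against VdR was kept only when the tumor left out was R2 or R5 (adjusted p 0.0534 to 0.126 without any of the others). Slc3a2, the partner of LAT1, Slc7a1, a carrier of cationic amino acids, and Slc1a4, a carrier of serine and alanine, were not called, with log2 differences from -0.15 to 0.16.

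Of the 11 synthetases measured, 4 fell in VR against R (Tars, Sars, Cars and Gars), 1 in VdR against R (Eprs) and 1 in VR against VdR (Cars), and none was called higher. Over all genes, 7.48%, 2.81% and 1.67% were called lower in these comparisons. The median log2 difference of the synthetases was -0.081 in VR against R and -0.079 in VdR against R. Tars charges tRNA with threonine. The tumors gave log2 values of 10.37, 10.06, 10.41 and 10.34 in R tumors, 10.11, 10.06, 10.09 and 10.30 in VdR tumors and 9.91, 9.82, 9.96 and 10.04 in VR tumors. VR tumors lay below all R and VdR tumors, and R2 lay below the other R tumors. The log2 difference was -0.36 (SE 0.084, adjusted p = 0.00978) for VR against R, -0.15 (SE 0.084, adjusted p = 0.304) for VdR against R and -0.21 (SE 0.084, adjusted p = 0.2) for VR against VdR. Sars charges tRNA with serine. Log2 values were 11.53, 11.49, 11.59 and 11.26 in R tumors, 11.33, 11.25, 11.26 and 11.28 in VdR tumors and 11.17, 11.24, 11.16 and 11.12 in VR tumors. R5 was the lowest R tumor and lay within the VdR range but above the VR tumors. The group means differed on the log2 scale by -0.29 (SE 0.067, adjusted p = 0.00899) for VR against R and -0.18 (SE 0.067, adjusted p = 0.112) for VdR against R. The VR calls of Tars and Sars were kept without any one tumor.

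Cars charges tRNA with cysteine. Its log2 values were 9.84, 9.61, 9.79 and 9.67 in R tumors, 9.73, 9.71, 9.77 and 9.75 in VdR tumors and 9.54, 9.59, 9.42 and 9.41 in VR tumors. VR tumors lay below all others, with VR2 close to R2. limma gave a log2 difference of -0.24 (SE 0.063, adjusted p = 0.018) for VR against R, -0.25 (SE 0.063, adjusted p = 0.049) for VR against VdR and 0.013 (SE 0.063, adjusted p = 0.929) for VdR against R. Leaving out R1, R4, VR4 or VR5 ended the call against R (adjusted p 0.0511 to 0.0588), and leaving out any tumor but R2 or R5 ended the call against VdR (0.0569 to 0.129). Gars charges tRNA with glycine. On the log2 scale it stood at 11.35, 11.29, 11.30 and 11.44 in R tumors, 11.33, 11.27, 11.20 and 11.27 in VdR tumors and 11.07, 11.17, 11.25 and 11.16 in VR tumors. VR tumors lay below all R tumors, with VR4 nearest to them. The log2 difference was -0.18 (SE 0.055, adjusted p = 0.0335) for VR against R, lost without R1, R5, VR1, VR2 or VR5 (adjusted p 0.0658 to 0.0924), and -0.079 (SE 0.055, adjusted p = 0.437) for VdR against R.

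Eprs encodes the synthetase for both glutamate and proline. The tumors gave log2 values of 10.64, 10.49, 10.67 and 10.56 in R tumors, 10.39, 10.32, 10.13 and 10.34 in VdR tumors and 10.46, 10.44, 10.53 and 10.63 in VR tumors. VdR tumors lay below every R and VR tumor, and VdR4 was the lowest. The group means differed on the log2 scale by -0.29 (SE 0.069, adjusted p = 0.0189) for VdR against R, lost without R1 or R4 (adjusted p 0.0619 in both), 0.21 (SE 0.069, adjusted p = 0.104) for VR against VdR and -0.077 (SE 0.069, adjusted p = 0.441) for VR against R. Iars charges tRNA with isoleucine and had 2 probesets. On the brighter one its log2 values were 11.38, 11.39, 11.42 and 11.44 in R tumors, 11.21, 11.02, 10.37 and 11.29 in VdR tumors and 11.40, 11.30, 11.15 and 11.24 in VR tumors. All VdR tumors lay below the R tumors, and VdR4 stood far below the other tumors. limma gave a log2 difference of -0.43 (SE 0.16, adjusted p = 0.111) for VdR against R. On the other probeset mean log2 values were 11.16 in R tumors, 10.91 in VR and 10.80 in VdR, and both VdR (log2 difference -0.36, adjusted p = 0.00645) and VR (-0.25, adjusted p = 0.0243) were called lower than R. The 2 probesets thus disagreed on the call. Lars, Mars, Nars, Wars and Yars, for leucine, methionine, asparagine, tryptophan and tyrosine, were not called, and their log2 differences ran from -0.11 to 0.076 over the 3 comparisons. Wars is also induced by interferon. Of 12 interferon-induced genes listed, 8 were tested and 4 of these were called higher in VR than R (50%, beside 13.6% of all genes). Wars gave -0.049 (SE 0.062, adjusted p = 0.588). Xpot had log2 differences of 0.017, 0.0060 and 0.011.

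Set side by side for VR against R, 4 of 11 synthetases and 1 of 5 serine and one-carbon genes were lower, with none higher, and transporters had 2 higher and 1 lower of 6. Their median log2 differences were -0.081, -0.18 and 0.030. Over all genes tested, 7.48% were lower and 13.6% higher, with a median of -0.015. In roles of 5 or 6 genes, 1 call more or less moves the share widely. No test of 1 role against another was made.

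Outside the members, 107 other listed genes of amino acid supply and sensing were followed, of which 98 were tested. In VR against R 13 were higher (13.3%, beside 13.6% of all genes) and 8 lower (8.16%, beside 7.48%), so both shares were near the background, and the median log2 difference was 0.059. In VdR against R 8 were higher (8.16%, beside 6.58%) and 4 lower (4.08%, beside 2.81%), and in VR against VdR 0 were higher (beside 1.77%) and 7 lower (7.14%, beside 1.67%). Of 13 other transporters, 2 were higher (15.4%, beside 13.6% of all genes) and 2 lower (15.4%, beside 7.48%) in VR against R. Slc36a1, a proton-coupled carrier of small amino acids, rose on the log2 scale by 0.47 (SE 0.064, adjusted p = 0.000513) in VR and 0.47 (SE 0.064, adjusted p = 0.000842) in VdR against R, and Slc43a2, a carrier of large neutral amino acids, by 0.49 (SE 0.12, adjusted p = 0.0107) and 0.70 (SE 0.12, adjusted p = 0.00264). Slc38a1, a glutamine carrier related to Slc38a2, gave -0.44 (SE 0.084, adjusted p = 0.00316) for VR against R. It was also lower in VR than VdR, at -0.41 (SE 0.084, adjusted p = 0.0264), and was not called in VdR against R, at -0.031 (adjusted p = 0.871). Slc7a11, the cystine importer and a known ATF4 target, gave -1.49 (SE 0.25, adjusted p = 0.00184) for VR against R and -1.32 (SE 0.25, adjusted p = 0.00647) for VdR against R, larger than any member's difference. Ddit4, an inhibitor of mTORC1 that ATF4 and hypoxia induce, fell in VR against R, with a log2 difference of -0.84 (SE 0.24, adjusted p = 0.0268). Its groups overlapped, at 8.95 to 10.24 in R tumors and 8.53 to 9.10 in VR tumors, with R1 and R4 the highest. Of 18 other amino acid and one-carbon enzymes, 1 was higher (5.56%, beside 13.6%) and 2 lower (11.1%, beside 7.48%) in VR against R. In VR against VdR 3 were lower (16.7%, beside 1.67%) and 0 higher (beside 1.77%). Among them Gldc, of the glycine cleavage system, gave in VR -1.69 (SE 0.20, adjusted p = 0.000246) against R and -1.25 (SE 0.20, adjusted p = 0.0127) against VdR. Among 10 other cytosolic synthetases and scaffold proteins, 3 were lower in VR than R (30%, beside 7.48%) and 0 higher (beside 13.6%). The lower ones were Eef1e1 (-0.48, adjusted p = 0.00266), Farsb (-0.27, adjusted p = 0.026) and Farsa (-0.24, adjusted p = 0.0244). In VdR against R 2 were lower (20%, beside 2.81%), Eef1e1 (-0.31, adjusted p = 0.0449) and Farsb (-0.29, adjusted p = 0.0355), while Farsa was not called (0.14, adjusted p = 0.242). In VR against VdR 1 was lower (10%, beside 1.67%), Farsa (-0.37, adjusted p = 0.017). Of 16 mitochondrial synthetases, 4 were higher in VR than R (25%, beside 13.6%) and 0 lower (beside 7.48%). The higher ones were Lars2, Wars2, Rars2 and Hars2 (log2 differences 0.25 to 0.38). Of 12 eIF2 kinases and other stress response genes, 2 were higher in VR than R (16.7%, beside 13.6%). Only Ddit4 was lower (8.33%, beside 7.48%), so both shares were near the background. The higher ones were Eif2ak2, which is itself interferon-induced, and Eif2ak3, also known as PERK, at 0.74 and 0.25 (adjusted p 0.0272 and 0.0355). Of 19 other genes of mTORC1 sensing, 3 were higher in VR than R (15.8%, beside 13.6%) and 0 lower (beside 7.48%). In VdR against R 2 were higher (10.5%, beside 6.58%) and 0 lower (beside 2.81%). Among them Sesn1, a relative of Sesn2, was higher in both VR (0.81, adjusted p = 0.000246) and VdR (0.73, adjusted p = 0.00072) than R. In the unfolded protein response, 1 of 10 genes was called in VR against R, Herpud1, which was higher (0.46, adjusted p = 0.00602). That is 10% higher, beside 13.6% of all genes.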

How the data were processed

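RNA of 12 tumors, 4 each of R, VdR and VR, was measured on Affymetrix mouse gene arrays. The authors ran RMA from oligo over all arrays at once (versions not given in the sources used here) and deposited log2 values, 1 per probeset. RMA puts all arrays on 1 distribution, so a change in total RNA is not seen. No batch or scan date is given in the sources used here, and the number of arrays limits the precision. Columns of other samples numbered 0.

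Of 35556 probesets, 21789 had 1 symbol in the platform annotation, 1621 several and 12146 none, and only the first were named. For each gene the probeset of highest mean was used. A gene was tested if 4 or more arrays exceeded 5.38, the 25th percentile over the whole table, and 16573 of 19938 did so. Group means were fitted over all 12 arrays with limma 3.58.1 in R 4.3.3 (statmod 1.5.0), with Benjamini-Hochberg adjustment over all genes tested and a threshold of 0.05. Pairs of arrays within a group correlated at 0.988 to 0.996 across genes, which are not independent replicates. In simulated arrays of 16573 genes for VR against R, 41 of 50 genes changed 1.5-fold and all 50 changed 2-fold were recovered, with 12 false calls of 203. The simulated noise was independent between genes and few genes were changed, whereas 3500 genes were called between the VR and R tumors. These figures therefore need not hold for the tumors. Recovery of changes smaller than 1.5-fold was not tested. Of the members called in VR against R, only Ppp1r15a, at a ratio of 0.657, changed by more than 1.5-fold. Cebpb, at 0.667, fell just short of it. All the others lie in the untested range, among them Atf4, Slc7a5 and Gars at ratios of 0.832, 1.18 and 0.881.

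The members and lists were chosen with earlier results of these data known. Members called in any comparison, or among the 6 with the largest absolute difference, have a value for every tumor in the text. Of other listed genes, at most the 4 with the lowest adjusted p per list and comparison are named. Cell type scores are mean log2 values of listed markers. Alternatives were other filters, probesets, scalings and moderation, the tumor number as a block and each tumor left out. Others were a fit of only the groups compared, a minimum change of 1.5-fold and a t-test without moderation. Added after the data were seen were the muscle score as a covariate and the muscle-bearing tumors left out.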

Additional observations from a re-analysis of the deposited data

Results flagged for a closer look

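In 4 of 105 sets of 4 tumors (35 members in 3 groups, 3.81%), 1 tumor stood apart from the other 3 by Dixon's criterion, which chance alone passes in about 1 set in 20. Ppp1r15a, the phosphatase subunit GADD34, was at a log2 value of 7.56 in VdR4, above the other VdR tumors at 7.29 to 7.30. VdR4 is also the tumor with the highest muscle score, 9.53. Asns, asparagine synthetase, was at 11.25 in VR5, below the other VR tumors at 11.67 to 11.69. Yars, the tyrosine synthetase, was at 10.18 in VR5, below 10.27 to 10.28. VR5 was the lowest VR tumor in 16 of 35 members (20.05% of all genes). Slc7a1, the carrier of cationic amino acids, was at 9.05 in R2, above 8.78 to 8.82 in the other R tumors.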

How the results depend on the processing

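No member changed its direction while called, and in VR against R Cebpb, Ppp1r15a and Eif4ebp1 kept their call in all 26 alternatives other than the minimum change. That test, at 1.5-fold, left 0 members in every comparison. Higher members in VR against R numbered 2 and became 1 with cyclic loess or only the groups compared. They became 0 without the muscle-bearing tumors and 0 with a t-test without moderation. The paper names a t-test beside its qRT-PCR and no per-gene test for the arrays. Lower members numbered 11 and became 15 with array weights, which added Ddit3, Rragd, Psat1 and Asns. Array weights also took the lower genes among all 16573 from 1239 to 2321. Lower members became 3 with the t-test without moderation, which gave 0 in both other comparisons after adjustment (17, 9 and 10 at an unadjusted p under 0.05). In VdR against R the 2 higher members became 4 with array weights and 0 without the muscle-bearing tumors. The 2 lower became 8 with array weights, 4 without the muscle-bearing tumors, and 3 with cyclic loess, median filter, mean of probesets, second probeset, trended moderation and the muscle covariate. The 4 members lower in VR than VdR became 1 with centring on the array median or the muscle covariate, 2 with only the groups compared and 0 without the muscle-bearing tumors. Over tumors left out in turn, counts in VR against R ran from 0 to 2 higher and 6 to 12 lower, in VdR against R from 1 to 3 higher and 0 to 7 lower, and in VR against VdR from 0 to 0 higher and 0 to 4 lower. In VdR against R the lower members were 0 without R1, 1 without R4 or VdR2, 3 without R2 and 7 without R5. In VR against VdR they were 0 without VR4 or VdR4, 1 without R4, VR2, VR5, VdR1 or VdR2, and 2 without R1 or VdR5.

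The shared tumor numbers were not taken as pairs: deviations of same-numbered tumors correlated at -0.15 to 0.40, over 0.1 in 8 of 12 pairs, and 3 of 12 tumors correlated best with their own number. The tumors numbered 2, all of them muscle-bearing, correlated at 0.227 to 0.398. With the number as a block, 2 members were higher and 10 lower in VR against R, 2 and 2 in VdR against R, and 0 and 3 in VR against VdR.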

Other observations

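The probeset shared by Aars, the alanine synthetase, and Exosc6, a subunit of the RNA exosome, had mean log2 values of 10.01 in R tumors, 9.91 in VR and 9.98 in VdR. Signal of the 2 genes cannot be told apart on it.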
